A study of Mus musculus with 8 samples.

Results

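The 38 genes described here encode lysosomal proteins and the transcription factors that regulate them. They were taken by symbol from the gene tables of 8 mouse sciatic nerves, which list 53090 genes, and comprise 3 TFE factors, 6 proteases, 4 glycogen and glycan hydrolases, 12 enzymes and carriers of sphingolipids and other lipids, 5 membrane proteins, progranulin and 7 members of the proton pump. The study asked what happens to Schwann cells, the myelinating glia of peripheral nerve, without NAE1, a subunit of the enzyme that activates the ubiquitin-like protein NEDD8. Total RNA of whole nerves from mice 7 days old was sequenced, with 4 control nerves (named K1, L3, L4 and L9) and 4 *Nae1* cKO nerves (K2, L1, L5 and L8). The *Nae1* cKO mice carried Cre and were Nae1 f/f. The controls, which the labels call WT, were littermates without Cre and with 1 or both *Nae1* alleles floxed, so that floxed alleles were present in both groups. The floxed allele came from a knockout-first allele after removal of its selection cassette. Cre was driven by a promoter that is active in Schwann cells, and the paper holds that residual NAE1 is likely that of other cell types. Whether fibroblasts, macrophages, endothelial cells and axons in the nerve kept *Nae1* was not measured here. The labels do not say that the nerves came from separate mice, and p-values measure the spread between these samples.

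Lysosomes break down proteins, glycans and lipids with acid hydrolases, which work at the low pH that the V-ATPase proton pump maintains. Membrane glycoproteins line the organelle, and carriers export what the hydrolases release. TFEB, TFE3 and MITF are related transcription factors that bind the E-box CACGTG, or its longer form TCACGTGA, in the promoters of many lysosomal genes, and mTORC1 holds them in the cytoplasm when nutrients are plentiful. In nerve, lysosomal enzymes turn over the galactolipids and sulfatides of myelin, and macrophages are rich in lysosomes.

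The E-box was common in the promoters of these genes. Of the 38 genes, 32 had a promoter in the RefSeq table of GRCm38.p6. It gives 250 bases before to 50 bases after each listed start. Some genes had more than 1 promoter, and a gene was counted if any of its promoters held the E-box. The word CACGTG, which reads the same on both strands, occurred in 13 of the 32 genes (40.6%), against 8.09% of 27025 genes in the whole table. TCACGTGA, which contains it, occurred in 7 of the 32 (21.9%), against 1.12% of all genes. Counted by promoter, CACGTG occurred in 13 of the 40 promoters of these genes, against 7.15% of all 32851 promoters. TCACGTGA occurred in 7 of the 40, against 0.974%. The 13 genes were *Arsa*, *Atp6v0d1*, *Atp6v1a*, *Cln3*, *Ctsa*, *Ctsd*, *Ctsl*, *Gaa*, *Gla*, *Glb1*, *Lamp1*, *Mcoln1* and *Naglu*. *Ctsb*, *Asah1*, *Npc1*, *Atp6v0d2*, *Atp6v1b2* and *Atp6v1h* were not in the table.

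The promoter of *Lamp1* held 4 copies of the word within 73 bases (chr8:13159088-13159160, plus strand, ending 1 base before the gene start), and it is shown because *Lamp1* was among the genes that changed. The windows that follow it show 1 copy of the longer word in each of the 7 genes that held one, on the strand of the gene. Capitals mark CACGTG in *Lamp1* and TCACGTGA in the others. For *Cln3* and *Ctsa* the copy lies in a downstream promoter, and the upstream promoter listed for each held no CACGTG. The windows lie at chr8:105566050-105566079 for *Atp6v0d1* (minus), chr16:44139373-44139402 for *Atp6v1a* (minus), chr7:126583340-126583369 for *Cln3* (minus), chr2:164833749-164833778 for *Ctsa* (plus), chr7:142387908-142387937 for *Ctsd* (minus), chrX:134601182-134601211 for *Gla* (minus) and chr8:3500462-3500491 for *Mcoln1* (plus).
Lamp1: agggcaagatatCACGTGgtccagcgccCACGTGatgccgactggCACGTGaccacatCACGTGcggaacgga
Atp6v0d1: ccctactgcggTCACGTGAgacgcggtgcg
Atp6v1a: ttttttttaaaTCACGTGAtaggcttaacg
Cln3: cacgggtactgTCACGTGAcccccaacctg
Ctsa: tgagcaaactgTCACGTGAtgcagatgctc
Ctsd: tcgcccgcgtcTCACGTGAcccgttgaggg
Gla: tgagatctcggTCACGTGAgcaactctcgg
Mcoln1: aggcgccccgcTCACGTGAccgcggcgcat

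Libraries held 12962797.9 to 14766769.7 expected counts in all. Levels are CPM, counts scaled to library size after TMM normalization, changes are log2 fold changes of *Nae1* cKO over control with their standard errors (SE), and a gene was called at an adjusted p under 0.05 in edgeR's quasi-likelihood test over 17090 genes. The targeted gene, *Nae1*, was at 82.9 ± 5.07 CPM in controls and 51.8 ± 6.56 CPM in *Nae1* cKO nerves (SD, n = 4), a change of −0.68 (SE 0.0971, adjusted p = 0.00028), and its groups did not overlap. In the paper's design Cre removes exon 4 of *Nae1*, whereas the count covers the whole gene. It does not measure the extent of deletion. Cell markers also moved. The 14 macrophage markers, none of which was at 0 in any nerve, summed to 273 to 302 CPM in controls and to 470 to 597.7 CPM in *Nae1* cKO nerves, and 11 of 14 rose. Of the 8 Schwann cell lineage markers 2 rose and 3 fell. Of the 11 skeletal muscle markers 5 fell, and their sum was highest in control nerves K1 (1280 CPM) and L4 (2100 CPM), against 63.8 to 175.9 CPM in *Nae1* cKO nerves. Of the 8 fibroblast markers 4 rose and of the 7 endothelial markers 3 fell. These counts stand beside 14.1% of all genes tested that rose and 12.3% that fell. In bulk nerve, fewer cells of a type and less RNA per cell cannot be told apart.

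The lysosomal genes did not move together. Of the 38, 37 were tested, 3 rose (8.11%) and 5 fell (13.5%), against 14.1% of all genes tested that rose and 12.3% that fell. *Ctsb*, *Hexa* and *Lamp2* rose, *Mitf*, *Npc1*, *Lamp1*, *Neu1* and *Smpd1* fell, and 29 were not called. None passed 2-fold, as 4.25% of all genes did upward and 2.49% downward. The median change of the 37 was −0.02, against 0.01 over all genes tested, and 16 of 37 lay above 0, against 50.8% of all genes. The groups did not overlap for 4 members that were higher (*Ctsb*, *Hexa*, *Ctsl* and *Gla*; 14.9% of all genes) and 6 that were lower (*Mitf*, *Neu1*, *Npc1*, *Lamp1*, *Galc* and *Npc2*; 13.7% of all genes). The untested member, *Atp6v0d2*, was at 0.296 ± 0.101 CPM in controls and 0.276 ± 0.218 CPM in *Nae1* cKO nerves, too low for the filter on counts. The split moved with the scaling, with 11 higher and 4 lower with library totals in place of TMM, 10 and 3 with limma on log2(FPKM + 1), and 2 and 0 on log2(TPM + 1). These scalings put the median of all genes at 0.163, 0.128 and 0.101. Without *Nae1* cKO nerve K2, 6 members rose and 9 fell, with *Gaa*, *Gla* and *Gusb* added to the first and *Tfeb*, *Asah1*, *Mcoln1* and *Atp6v0d1* to the second. Without *Nae1* cKO nerve L1, 6 rose, with *Ctsd*, *Ctsz* and *Gaa* added.

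**Figure D1:**
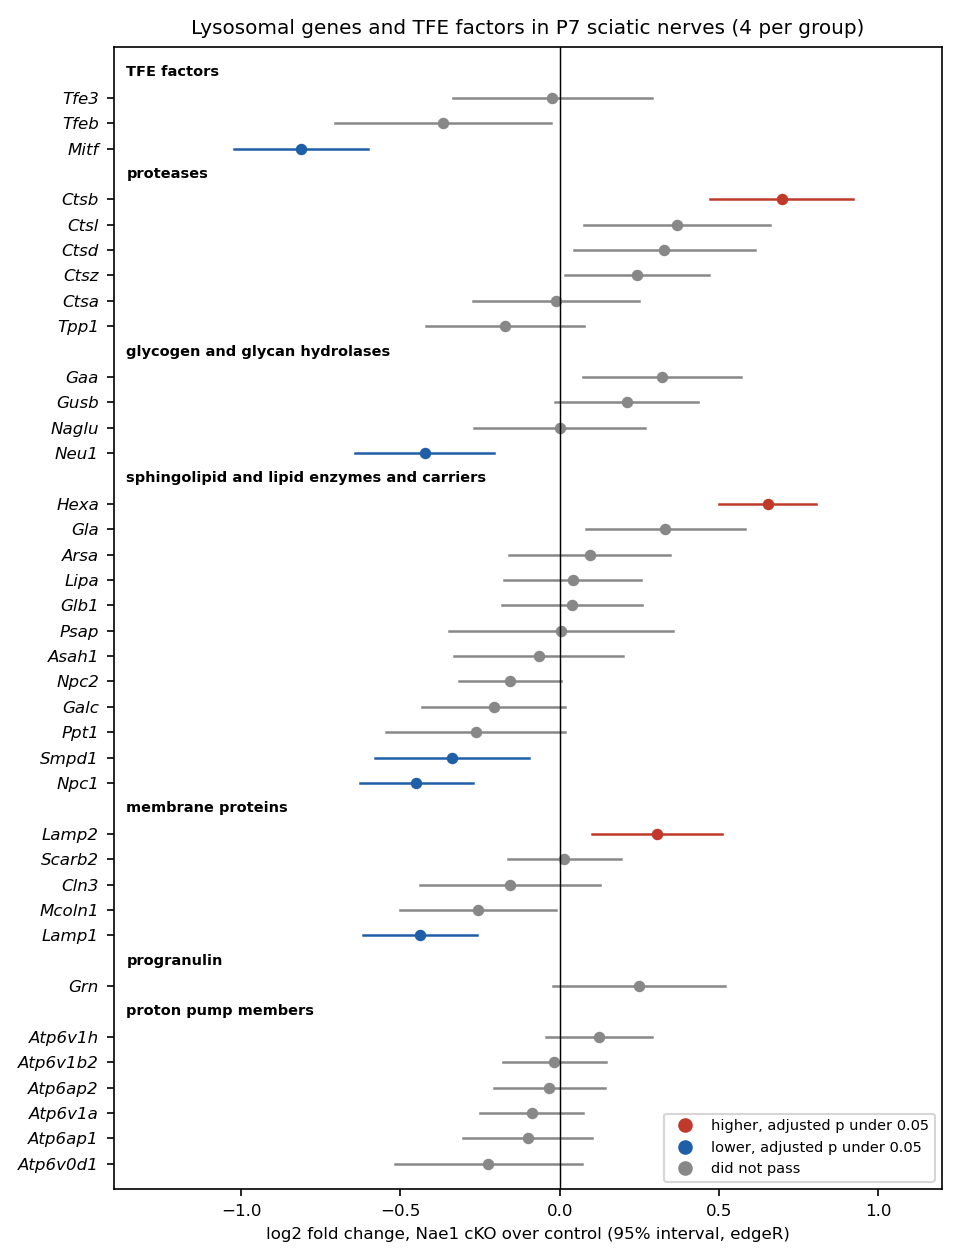
Log2 fold change of *Nae1* cKO over control nerves (x axis) for the 37 tested genes, grouped by role, with points as edgeR estimates and bars as 95% intervals. The 3 genes called higher are red and the 5 called lower are blue. The TFE factors lie below 0 and progranulin above it, and the other roles have members on both sides.

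Of the 3 TFE factors *Mitf*, which also serves as the master regulator of pigment cells, fell, and *Tfe3* and *Tfeb* were not called. Differences between the 3 in their response were not tested. *Mitf* was at 49.97, 56.5, 50 and 62.0 CPM in control nerves K1, L3, L4 and L9 and at 28.4, 30.0, 33.9 and 32.0 CPM in *Nae1* cKO nerves K2, L1, L5 and L8. Every control lay above every *Nae1* cKO nerve. The mean fell from 54.6 ± 5.80 to 31.1 ± 2.36 CPM (SD, n = 4), a change of −0.81 (SE 0.0966, adjusted p = 7.0e-05), the lowest p of the members after *Hexa*.

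*Tfeb*, the factor most closely tied to lysosome biogenesis, was at 9.50, 8.83, 10.6 and 8.42 CPM in controls and at 9.11, 5.92, 6.73 and 7.25 CPM in *Nae1* cKO nerves. Nerve K2 lay among the controls, and the other *Nae1* cKO nerves lay below them. The difference was −0.37 (SE 0.156, adjusted p = 0.105), with a 95% interval from −0.71 to −0.03 that is not adjusted for the number of genes. Without K2 it was −0.50 (edgeR adjusted p = 0.0184), and *Tfeb* was called in 2 of 21 alternatives. *Tfe3*, which responds to the same nutrient signals, was at 20.8, 22.5, 31.6 and 22.0 CPM in controls and at 19.5, 24.5, 25.1 and 26.4 CPM in *Nae1* cKO nerves. Its groups overlapped over most of their range, and the difference was −0.02 (SE 0.144, adjusted p = 0.928; 95% interval −0.34 to 0.29). Its sign changed under 7 of 21 alternatives.

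**Figure D2:**
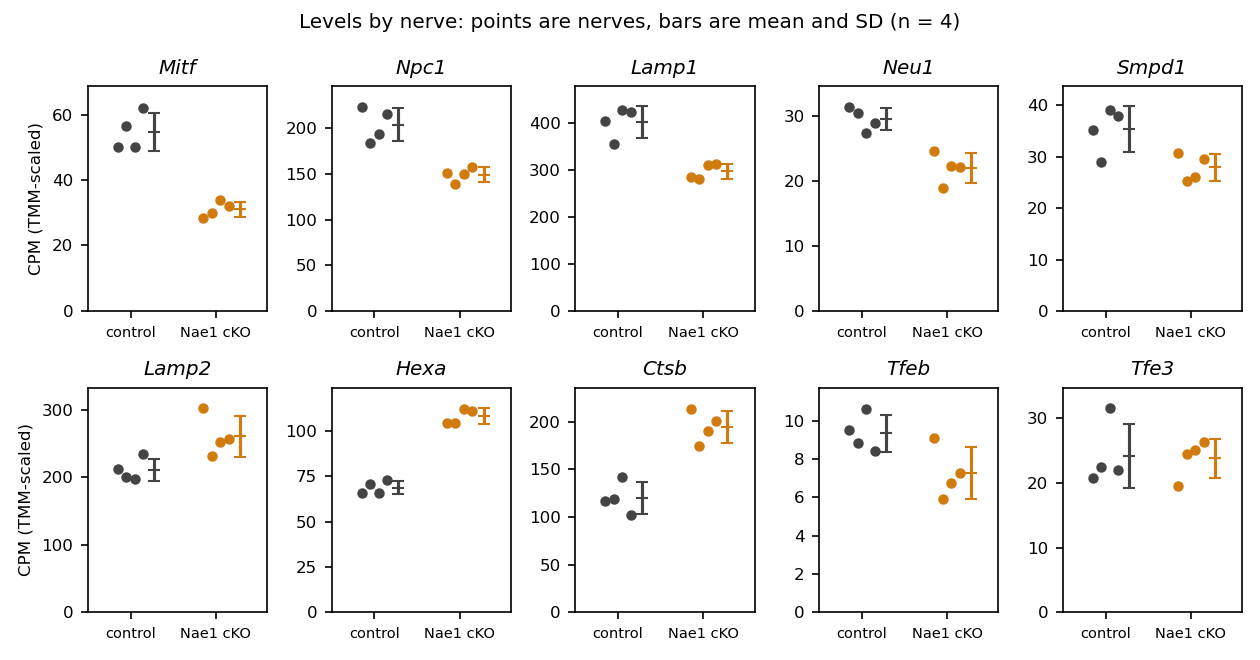
TMM-scaled CPM (y axis) of the 8 called genes and of *Tfeb* and *Tfe3* in every control (grey) and *Nae1* cKO (orange) nerve, with bars for mean and SD (n = 4). The groups are apart for *Mitf*, *Npc1*, *Lamp1*, *Neu1*, *Hexa* and *Ctsb* and overlap for *Smpd1*, *Lamp2*, *Tfeb* and *Tfe3*.

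Among the 6 proteases, *Ctsb* rose and 5 were not called. *Ctsb* encodes cathepsin B, a cysteine protease that is abundant in macrophages. It was at 116.4, 119.0, 142.5 and 101.8 CPM in controls and at 212.8, 174.0, 190.4 and 200.7 CPM in *Nae1* cKO nerves. The groups were apart, and the highest *Nae1* cKO nerve was K2. The mean rose from 119.9 ± 16.9 to 194.5 ± 16.4 CPM (SD, n = 4), by 0.70 (SE 0.103, adjusted p = 0.00036).

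*Ctsl* and *Ctsd* encode cathepsin L, a cysteine protease, and cathepsin D, the main aspartic protease of lysosomes. *Ctsl* was at 98.7, 89.4, 93.2 and 93.0 CPM in controls and at 163.7, 105.1, 110.5 and 104.4 CPM in *Nae1* cKO nerves, so that the groups did not overlap and K2 lay far above the other *Nae1* cKO nerves. Its difference was 0.37 (SE 0.133, adjusted p = 0.0617). *Ctsd* was at 198.2, 230.5, 224.5 and 192.7 CPM in controls and at 342.8, 214.0, 243.3 and 262.3 CPM in *Nae1* cKO nerves. K2 was again the highest, L1 lay among the controls, and the difference was 0.33 (SE 0.130, adjusted p = 0.0855).

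The other 3 proteases were not called. *Ctsz*, cathepsin Z, a carboxypeptidase, was at 41.9 ± 3.91 CPM in controls and 49.5 ± 5.82 CPM in *Nae1* cKO nerves (0.24, adjusted p = 0.11). *Ctsa*, the protective protein that stabilizes beta-galactosidase and neuraminidase, was at 106.7 ± 14.8 and 105.8 ± 14.97 CPM (−0.01, adjusted p = 0.956). *Tpp1*, tripeptidyl peptidase, was at 41.3 ± 6.95 and 36.6 ± 2.30 CPM (−0.17, adjusted p = 0.302). The median over the 6 proteases was 0.29.

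Of the 4 glycogen and glycan hydrolases, *Neu1* fell. *Neu1* encodes the lysosomal sialidase, which removes sialic acid from glycoproteins and glycolipids. It was at 31.5, 30.5, 27.5 and 28.9 CPM in controls and at 24.6, 19.0, 22.4 and 22.2 CPM in *Nae1* cKO nerves, and all controls lay above all *Nae1* cKO nerves. It fell by 0.42 on the log2 scale (SE 0.09997, adjusted p = 0.00774), although the call was lost without control nerves K1 and L4.

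*Gaa*, the acid glucosidase that degrades glycogen, was at 59.8, 67.3, 70.3 and 73.4 CPM in controls and at 78.2, 69.6, 88.8 and 101.9 CPM in *Nae1* cKO nerves. The *Nae1* cKO nerve L1 lay among the controls and the other 3 lay above them, with a difference of 0.32 (SE 0.114, adjusted p = 0.0563). *Gusb*, beta-glucuronidase, was at 47.3 ± 5.58 and 54.7 ± 5.31 CPM (0.21, adjusted p = 0.16). *Naglu*, a heparan sulfate hydrolase, was at 13.7 ± 1.40 and 13.7 ± 1.61 CPM, with a 95% interval of the difference from −0.27 to 0.27.

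The lipid enzymes and carriers held calls in both directions, with *Hexa* higher and *Npc1* and *Smpd1* lower. *Hexa* encodes the alpha subunit of beta-hexosaminidase, which degrades GM2 ganglioside. It was at 65.7, 70.7, 66.1 and 72.9 CPM in controls and at 104.5, 104.6, 112.5 and 111.4 CPM in *Nae1* cKO nerves. The groups were far apart and tight, with means of 68.8 ± 3.54 and 108.3 ± 4.33 CPM (SD, n = 4). *Hexa* rose by 0.65 (SE 0.0701, adjusted p = 3.3e-05), the lowest p among the members.

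*Npc1*, the membrane protein that exports cholesterol from lysosomes, was at 223.7, 184.1, 193.2 and 215.2 CPM in controls and at 151.4, 138.4, 149.8 and 157.6 CPM in *Nae1* cKO nerves. All *Nae1* cKO nerves lay below all controls, and *Npc1* fell by 0.45 on the log2 scale (SE 0.0815, adjusted p = 0.00145). Its soluble partner *Npc2*, which hands cholesterol to NPC1, was at 119.0, 121.3, 132.7 and 133.6 CPM in controls and at 114.3, 105.3, 118.1 and 117.0 CPM in *Nae1* cKO nerves. The groups were narrowly apart, with a difference of −0.16 (SE 0.0733, adjusted p = 0.142).

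*Smpd1*, acid sphingomyelinase, was at 35.2, 29.0, 39.0 and 37.98 CPM in controls and at 30.8, 25.3, 26.1 and 29.6 CPM in *Nae1* cKO nerves. Control L3 lay within the *Nae1* cKO range. *Smpd1* fell by 0.34 on the log2 scale (SE 0.111, adjusted p = 0.0419), and it lost its call under 12 of 21 alternatives, among them the omission of K1, L1, L4, L5, L8 or L9 alone.

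*Galc*, which degrades galactosylceramide and is the gene of Krabbe disease, was at 35.6, 35.5, 46.3 and 34.5 CPM in controls and at 33.0, 32.7, 32.2 and 33.7 CPM in *Nae1* cKO nerves. Control L4 stood above the other controls, which lay just above all *Nae1* cKO nerves, and the difference was −0.21 (SE 0.103, adjusted p = 0.166). *Arsa*, which degrades sulfatide, was at 19.0 ± 2.28 and 20.2 ± 1.94 CPM (0.09, adjusted p = 0.602). *Gla*, alpha-galactosidase A, was at 8.92 ± 0.478 and 11.2 ± 0.722 CPM with no overlap (0.33, SE 0.115, adjusted p = 0.0514), and *Gla* and *Gaa* were the members closest to the threshold without passing it.

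*Psap* encodes the precursor of the saposins, which present lipids to these enzymes. It was at 305.6, 275.5, 465.8 and 373.2 CPM in controls and at 328.4, 302.9, 373.9 and 418.3 CPM in *Nae1* cKO nerves, with the largest SD in controls of all members (84.4 CPM). Its 95% interval ran from −0.35 to 0.36. *Asah1*, acid ceramidase, was at 207.2, 215.8, 186.8 and 221.8 CPM in controls and at 258.2, 180.0, 178.5 and 177.7 CPM in *Nae1* cKO nerves. Nerve K2 lay above every control and the other 3 below every control, with a difference of −0.07 (adjusted p = 0.735). Without K2, *Asah1* was lower by the same test (adjusted p = 0.032), the only 1 of 21 alternatives that called it.

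The remaining lipid enzymes overlapped between groups. *Ppt1*, which removes palmitate from proteins, differed by −0.26 (adjusted p = 0.158). *Lipa*, the acid lipase for cholesteryl esters, differed by 0.04 (adjusted p = 0.804). *Glb1*, beta-galactosidase, differed by 0.04 (adjusted p = 0.819).

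The 2 main membrane glycoproteins of lysosomes moved in opposite directions. *Lamp1* was at 404.8, 354.9, 427.4 and 423.5 CPM in controls and at 286.2, 280.1, 310.3 and 312.2 CPM in *Nae1* cKO nerves, and every control lay above every *Nae1* cKO nerve. It fell by 0.44 on the log2 scale (SE 0.0818, adjusted p = 0.00179). *Lamp2*, which also takes part in the fusion of autophagosomes and in chaperone-mediated autophagy, was at 211.7, 200.3, 198.2 and 233.8 CPM in controls and at 302.9, 231.2, 251.6 and 257.2 CPM in *Nae1* cKO nerves. *Nae1* cKO nerve L1 lay just below control L9. *Lamp2* rose by 0.31 (SE 0.0934, adjusted p = 0.0298), and it lost its call under 9 of 21 alternatives, among them the omission of K1, L3, L4, L5 or L8 alone.

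*Scarb2*, the receptor that carries glucocerebrosidase to lysosomes, was at 412.2 ± 25.8 CPM in controls and 416.3 ± 32.7 CPM in *Nae1* cKO nerves, and its 95% interval ran from −0.16 to 0.19. *Mcoln1*, the lysosomal calcium channel, was at 27.8, 31.4, 34.9 and 26.3 CPM in controls and at 28.2, 22.6, 25.9 and 24.3 CPM in *Nae1* cKO nerves. Only K2 of the *Nae1* cKO nerves lay within the control range, and the difference was −0.26 (SE 0.112, adjusted p = 0.116), or −0.32 without K2 (edgeR adjusted p = 0.0425). *Mcoln1* was called in 2 of 21 alternatives. *Cln3*, a membrane protein lost in juvenile Batten disease, differed by −0.16 (adjusted p = 0.418). Progranulin (*Grn*), a secreted precursor that is cleaved in lysosomes, was at 42.1 ± 7.42 and 50.1 ± 5.76 CPM, a difference of 0.25 (SE 0.124, adjusted p = 0.169).

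None of the 6 tested proton pump members was called. *Atp6v1a* and *Atp6v1b2* encode the catalytic and the nucleotide-binding subunit of the V1 sector, *Atp6v1h* a regulatory V1 subunit, *Atp6v0d1* a subunit of the membrane sector, and *Atp6ap1* and *Atp6ap2* accessory proteins. *Atp6v1a* was at 95.6, 98.0, 90.3 and 107.7 CPM in controls and at 96.5, 89.2, 92.7 and 90.0 CPM in *Nae1* cKO nerves, and the groups overlapped. Its 95% interval ran from −0.25 to 0.07. The intervals of *Atp6v1b2* (−0.18 to 0.15), *Atp6v1h* (−0.04 to 0.29), *Atp6ap1* (−0.30 to 0.10) and *Atp6ap2* (−0.21 to 0.14) also included 0. *Atp6v0d1* was at 30.6, 31.3, 33.6 and 28.3 CPM in controls and at 34.9, 23.1, 25.4 and 22.7 CPM in *Nae1* cKO nerves. K2 lay above every control and the other 3 *Nae1* cKO nerves below every control, and the interval was wider (−0.52 to 0.07). Without K2 the difference was −0.39 (edgeR adjusted p = 0.0062), and *Atp6v0d1* was called in 2 of 21 alternatives. The signs of *Atp6v1a*, *Atp6v1b2*, *Atp6ap1* and *Atp6ap2* turned with library totals, TPM and FPKM.

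Nerve K2, the only *Nae1* cKO nerve with the letter K, was often the highest or the lowest of its group for these genes. It was the highest of the 4 for 17 members and the lowest for 12, and L1 was the lowest for 18 and the highest for 1. The same was not counted over all genes. K2 also had the highest summed macrophage markers (597.7 CPM, against 470 to 484.1 CPM in the other 3). Among controls L4 was the highest for 17 members. The part of macrophage, Schwann cell, muscle, fibroblast or endothelial RNA in the changes of the members was not tested.

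Calls were also counted by the presence of an E-box. Of the 13 genes with CACGTG, 0 rose and 1, *Lamp1*, fell, by edgeR at the adjusted threshold, and of the 19 genes without it, 2 rose (*Hexa* and *Lamp2*) and 3 fell (*Mitf*, *Neu1* and *Smpd1*). Over all genes tested 14.1% rose and 12.3% fell, and the difference between the members with and without the word was not tested. None of the 7 genes with TCACGTGA was called, and their changes ran from −0.26 in *Mcoln1* to 0.33 in *Gla*. The word is a description of this window, and binding was not measured.

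Levels between genes were compared in TPM, which the authors scaled to transcript length. In controls *Lamp1* was the highest at 129.2 ± 20.4 TPM, followed by *Psap* at 96.8 ± 31.0 and *Ctsd* at 71.6 ± 10.1 TPM (SD, n = 4). The lowest of the tested members were *Tfe3* at 5.62 ± 1.63, *Tfeb* at 4.65 ± 0.963, *Arsa* at 4.49 ± 0.846, *Naglu* at 3.78 ± 0.651 and *Gla* at 1.96 ± 0.275 TPM. *Atp6v0d2*, a subunit known from osteoclasts and macrophages, was at 0.0825 ± 0.0359 TPM. Along this order, neighbours overlapped between nerves except *Naglu* above *Gla* and *Gla* above *Atp6v0d2*. In *Nae1* cKO nerves *Psap* (107.1 ± 28.9 TPM) and *Lamp1* (106.3 ± 26.4 TPM) led, and *Ctsb* moved from place 9 to place 4. Summed over the 38 genes, TPM was lowest in nerves K2 (812.8) and K1 (843.1), against 928.4 to 1367 in the other 6 nerves.

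**Figure D3:**
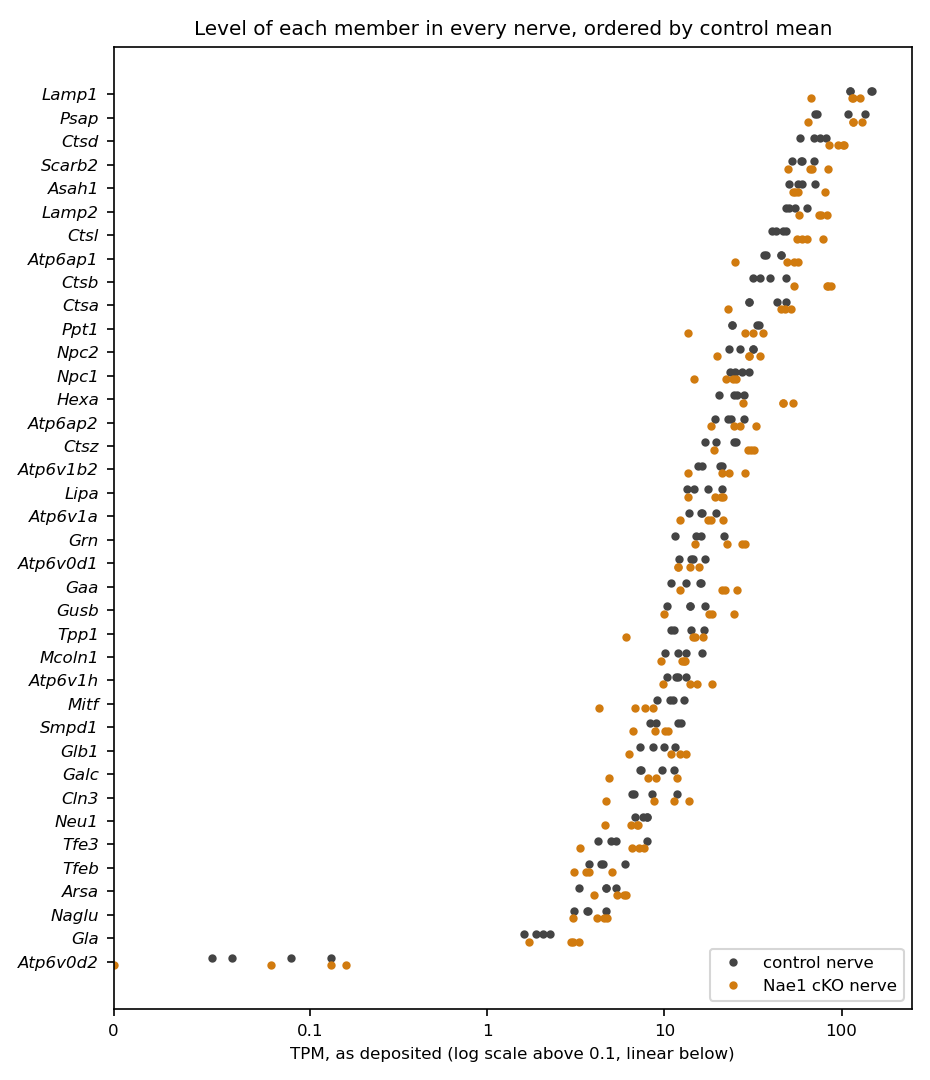
TPM of the 38 genes (x axis, log scale above 0.1) in each control (grey) and *Nae1* cKO (orange) nerve, ordered by the control mean. *Lamp1* and *Psap* are at the top and *Atp6v0d2* at the bottom, and neighbouring genes overlap over most of the order.

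TPM divides by the effective length that RSEM estimates for each nerve, so that changes in TPM and in counts can differ. TPM changes also lay above count changes where the length was alike, as for *Hexa* (by 0.158, with 1847 bases in both groups). At the median of all genes the TPM change, with 1 added to each group mean, exceeded the count change by 0.137 (log2). For members nothing was added, and the excess was over 0.3 for *Ctsb* (0.302) and *Cln3* (0.352). The effective length of *Ctsb* was 2065 ± 69.5 bases in controls and 1847 ± 88.4 bases in *Nae1* cKO nerves (SD, n = 4), and the groups did not overlap (two-sided exact permutation p = 0.0286, the smallest that 4 against 4 allows, unadjusted over the 37 members). That of *Cln3* was 1069 ± 149.9 and 965.3 ± 160.3 bases (exact permutation p = 0.4). *Ctsb* and *Cln3* were picked for this test by their excess, which depends on the length itself, so that the p-values are descriptions. The excess was under 0.3 for *Atp6ap1* (0.267) and *Grn* (0.292), and no p-value is given for them. *Atp6ap1* was at 1952 ± 20.7 and 1840 ± 67.4 bases, also without overlap. *Grn* was at 1758 ± 84.6 and 1586 ± 77.3 bases, with overlap. *Ctsb* and *Atp6ap1* were the 2 members of 37 whose lengths did not overlap and were shorter in *Nae1* cKO nerves, as were those of 1.92% of all genes tested. Which transcripts make up the difference was not analysed here.

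**Figure D4:**
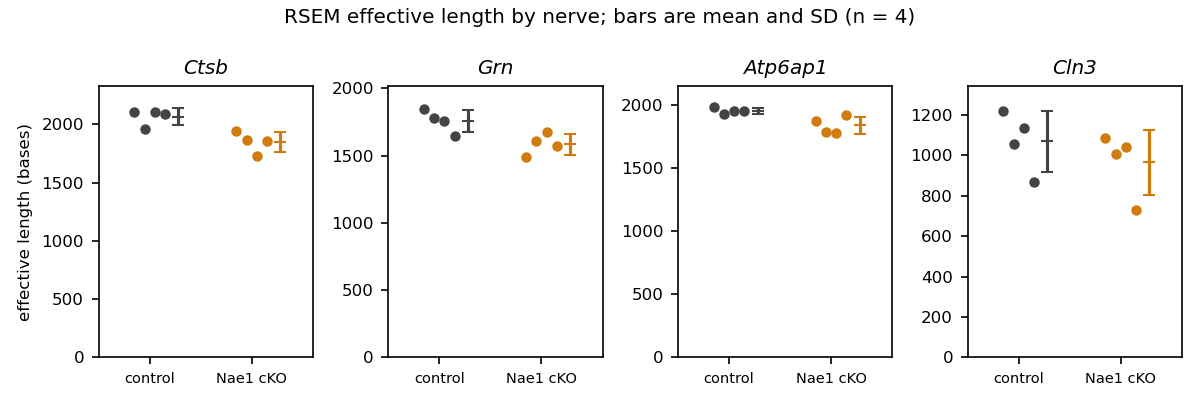
RSEM effective length in bases (y axis) of 4 genes in every control (grey) and *Nae1* cKO (orange) nerve, with bars for mean and SD (n = 4). The groups are apart for *Ctsb* and *Atp6ap1* and overlap for *Grn* and *Cln3*.

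The other genes of the lysosomal pathway were taken as 6 further lists. They were chosen with earlier results of these data known, so that the shares called are descriptions. Of 33 other hydrolases and their cofactors, 13 rose (39.4%, against 14.1% of all genes tested) and 1 fell (3.03%, against 12.3%), with a median of 0.22. *Ctss*, cathepsin S, a protease of antigen-presenting cells, rose from 12.5 ± 0.233 to 45.1 ± 5.61 CPM (1.85, adjusted p = 2.7e-07). *Arsb*, which degrades dermatan sulfate, rose by 0.92 (adjusted p = 0.00019), and *Ids*, iduronate sulfatase, fell by 0.69 on the log2 scale (adjusted p = 4.5e-05). The difference between the hydrolases among the members and those of this list was not tested. The median change was 0.96 for the macrophage markers and 0.24 for the fibroblast markers. The part of either cell type in the changes of this list was not tested.

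Of 20 other membrane proteins, 3 rose (15%) and 3 fell (15%), near the 14.1% and 12.3% of all genes tested, with a median of −0.03. *Abca2*, a lipid transporter of myelinating glia, fell by 0.96 on the log2 scale (adjusted p = 0.00013) and *Mfsd8*, a lysosomal transporter, by 0.64 (adjusted p = 0.00033). *Cd63*, a tetraspanin, rose by 0.56 (adjusted p = 0.00019) and *Laptm4b* by 0.60 (adjusted p = 0.00043). Of 16 other V-ATPase subunits 13 were tested and 1 fell (7.69%), *Atp6v0e2* (−0.40, adjusted p = 0.00686), so that 1 of 19 tested pump genes in both lists was called.

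Of 11 genes that sort enzymes to lysosomes, 4 fell (36.4%, against 12.3% of all genes tested), 0 rose by edgeR (against 14.1%) and 7 were not called. DESeq2 called 1 higher and library totals 2. *Sort1*, a sorting receptor, fell by 0.65 on the log2 scale (adjusted p = 0.00026), and *Gnptg* (by 0.76, adjusted p = 0.00082) and *Gnptab* (by 0.40, adjusted p = 0.00071), subunits of the enzyme that adds the mannose 6-phosphate tag, also fell. *Cln8*, an escort of hydrolases from the endoplasmic reticulum, fell by 0.32 on the log2 scale (adjusted p = 0.0483), and it kept its call in 7 of 21 alternatives. The call was lost with the omission of K1, L1, L3, L4, L5, L8 or L9 alone, and the sign turned in TPM and FPKM.

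Of 14 genes that regulate the TFE factors, 3 rose (21.4%, against 14.1% of all genes tested) and 1 fell (7.14%, against 12.3%). *Rragd*, a Rag GTPase that is itself a target of TFE factors, rose by 0.88 (adjusted p = 0.00322). *Fnip2* (0.47, adjusted p = 0.00079) and *Fnip1* (0.32, adjusted p = 0.0112), partners of folliculin, rose, and *Lamtor4*, a subunit of the Ragulator, fell by 0.42 on the log2 scale (adjusted p = 0.0166), a call lost under 7 of 21 alternatives, among them the omission of K1 or L5 alone. Of 24 autophagy genes 2 rose (8.33%, against 14.1% of all genes tested) and 6 fell (25.0%, against 12.3%). *Sqstm1*, the receptor p62 and a target of NRF2, rose by 0.69 (adjusted p = 0.00383), while *Ulk2*, a kinase that starts autophagy, fell by 0.51 on the log2 scale (adjusted p = 0.00021), *Wipi1* by 0.35 (adjusted p = 0.00262) and *Gabarapl2* by 0.41 (adjusted p = 0.00569).

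**Figure D5:**
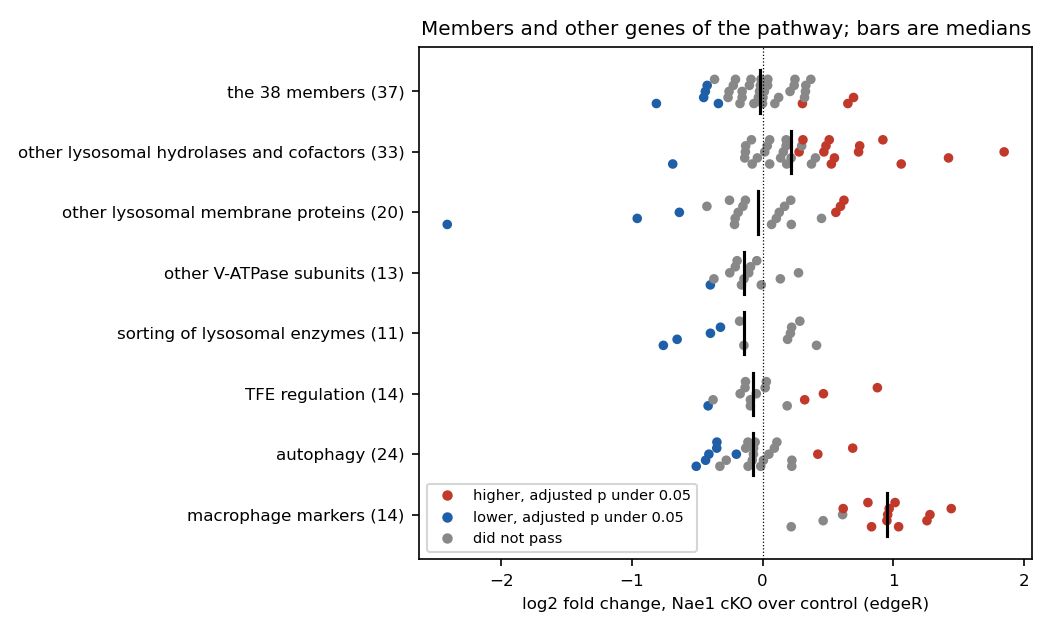
Log2 fold change of *Nae1* cKO over control (x axis) for the 37 tested members, the 6 further lists and the macrophage markers, with the number of tested genes in brackets. Points are genes, coloured by call, and black bars are medians, which lie at −0.02 for the members, 0.22 for the other hydrolases and 0.96 for the macrophage markers.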

How the data were processed

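Total RNA of sciatic nerves was sequenced from stranded, rRNA-depleted libraries. The authors deposited 1 RSEM gene table per nerve, with expected counts (estimated fragments, not scaled), TPM, FPKM and effective lengths. FastQC 0.11.5, GRCm38, STAR and RSEM are listed in the submitters' processing notes, whereas the methods of the paper name TopHat, mm10 and Cuffdiff. The annotation and strandedness options were not given in the sources used here. Genes were matched by symbol.

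Expected counts were rounded and filtered by filterByExpr, libraries were scaled by TMM, and genotypes were compared without covariates by edgeR 4.0.16 (quasi-likelihood, robust, R 4.3.3) over all genes, with Benjamini-Hochberg adjustment. The code was tested on simulated data. DESeq2 1.42.0, limma 3.58.1, other scalings, filters and units, the letter of the nerve name, and omission of nerves were alternatives. Counting error and replicate spread limit low genes such as *Atp6v0d2*. Nothing was pooled.

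The members and lists were chosen with earlier results of these data known. The text names all members, *Nae1* and up to 4 called genes of smallest p per further list. Some items under this rule are not reported here. Promoters came from RefSeq (GRCm38.p6). No protein sequences were compared.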

Additional observations from a re-analysis of the deposited data

Results flagged for a closer look

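For 5 genes a single nerve lay far from the rest of its genotype, judged by the gap to the nearest nerve as a share of the whole range. Of 76 sets of 4 nerves examined, chance gives such a gap in about 1 in 20. *Asah1* was highest in *Nae1* cKO nerve K2, with a gap of 0.972 of the range, and *Ctsl* was also highest in K2 (0.897). *Galc* (0.907) and *Tfe3* (0.842) were highest in control nerve L4, which held the most muscle marker RNA. *Atp6ap1* was lowest in control nerve L3 (0.874). The cause was not tested.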

How the results depend on the processing

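Of the 8 called members, *Ctsb* and *Hexa* kept their call under all 21 alternatives. *Mitf*, *Npc1* and *Lamp1* lost theirs only with limma on TPM, *Neu1* in 4, *Lamp2* in 9 and *Smpd1* in 12. No called member changed sign. *Nae1* lost its call with limma on TPM (−0.438 and −0.455 with pseudocounts of 1 and 0.1; −0.539 and −0.587 relative to the median of all genes). No paired analysis was possible because the labels do not name litters or pairs of nerves. The cause of the changes below was not tested. What depth limits is mainly *Atp6v0d2*, which was not tested for its low counts.

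Members called higher numbered 11 with library totals, 5 with at least 10 counts in every nerve, 10 in FPKM and 6 with the letter of the nerve name as a term, and those called lower 0 with limma on TPM (both pseudocounts, 1 and 0.1), 3 in FPKM, 8 in nerves with the letter L only and 3 without control nerves K1 and L4. Omitting each nerve in turn gave 2 to 6 higher and 4 to 9 lower. Without K2, 6 members were higher and 9 lower.

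In TPM (both pseudocounts), other hydrolases gave 6 higher and 0 lower, other membrane proteins 1 higher (and, with 0.1, 1 lower), other V-ATPase subunits 0 lower, sorting genes 0 lower, TFE regulation 1 higher and 0 lower, and autophagy 1 higher and 0 lower. With library totals, membrane proteins gave 6 higher, V-ATPase subunits 1 higher and 0 lower, sorting genes 2 higher, TFE regulation 0 lower and autophagy 2 lower. In FPKM, V-ATPase subunits gave 1 higher and 0 lower, sorting genes 1 higher and 2 lower, TFE regulation 0 lower and autophagy 1 lower. With the letter as a term, V-ATPase subunits gave 2 lower and sorting genes 2 higher. In nerves with the letter L only, membrane proteins gave 5 lower. Without control nerves K1 and L4, V-ATPase subunits gave 0 lower, TFE regulation 0 lower, and autophagy 1 higher and 2 lower. Sorting genes gave 1 higher in DESeq2, without abundant noncoding genes, and with at least 10 counts. Omitting each nerve in turn gave 3 to 5 lower for membrane proteins, 1 to 2 lower for V-ATPase subunits, 0 to 2 higher for sorting genes, 0 to 1 lower for TFE regulation, and 1 to 2 higher and 3 to 7 lower for autophagy. The omitted nerves that moved these counts by over 1.5 times were K2 for membrane proteins (5 lower), K2 and L3 for V-ATPase subunits (2 lower), K2 (2 higher), L3 and L9 (1 higher) for sorting genes, K1 and L5 for TFE regulation (0 lower), L3, L4 and L8 for autophagy (1 higher), and L1, L4, L5, L8 and L9 for autophagy (3 lower).

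Signs changed 76 times, among genes that were not called except *Cln8*. With library totals the log2 changes became 0.14 for *Tfe3*, 0.15 for *Ctsa*, 0.15 for *Naglu*, 0.0797 for *Asah1*, 0.0063 for *Cln3*, 0.067 for *Atp6v1a*, 0.14 for *Atp6v1b2*, 0.061 for *Atp6ap1* and 0.12 for *Atp6ap2*. On log2(TPM + 1) they became 0.095 for *Tfe3*, 0.11 for *Ctsa*, 0.10 for *Naglu*, 0.037 for *Asah1*, 0.12 for *Cln3*, 0.056 for *Atp6v1a*, 0.18 for *Atp6v1b2*, 0.10 for *Atp6ap1*, 0.10 for *Atp6ap2* and 0.029 for *Cln8*, and on log2(TPM + 0.1) 0.10, 0.11, 0.12, 0.038, 0.13, 0.058, 0.19, 0.10, 0.10 and 0.033 for the same genes in that order. On log2(FPKM + 1) they became 0.12 for *Tfe3*, 0.14 for *Ctsa*, 0.13 for *Naglu*, 0.067 for *Asah1*, 0.021 for *Npc2*, 0.15 for *Cln3*, 0.084 for *Atp6v1a*, 0.21 for *Atp6v1b2*, 0.13 for *Atp6ap1*, 0.13 for *Atp6ap2* and 0.059 for *Cln8*. Without control nerves K1 and L4 they became 0.095 for *Tfe3*, 0.064 for *Naglu*, −0.038 for *Arsa*, −0.044 for *Scarb2* and 0.011 for *Atp6v1b2*. With the letter L only they became 0.033 for *Ctsa*, −0.0397 for *Arsa*, −0.0304 for *Psap*, −0.033 for *Lipa* and −0.046 for *Scarb2*. *Naglu* became 0.0069 with at least 10 counts in every nerve, and *Psap* became −0.0062 in DESeq2 and with its size factors and −0.0025 with no filter. Omitting each nerve in turn gave −0.092 to 0.13 for *Tfe3*, −0.0902 to 0.061 for *Ctsa*, −0.054 to 0.069 for *Naglu*, −0.017 to 0.11 for *Glb1*, −0.10 to 0.16 for *Psap*, −0.0082 to 0.13 for *Lipa*, −0.049 to 0.048 for *Scarb2*, −0.053 to 0.017 for *Atp6v1b2* and −0.065 to 0.023 for *Atp6ap2*.

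Library totals, TPM + 1, TPM + 0.1 and FPKM put the median of all genes at 0.163, 0.101, 0.132 and 0.128. Changes relative to that median were added after the sign changes had been seen, and 12 signs then differed from the main values, all to values under 0.1 in size: on log2(TPM + 1) 0.0067 for *Ctsa*, 0.022 for *Cln3*, 0.083 for *Atp6v1b2* and 0.0022 for *Atp6ap1*, on log2(TPM + 0.1) 0.059 for *Atp6v1b2*, in FPKM 0.0084 for *Ctsa*, 0.0021 for *Naglu*, 0.019 for *Cln3*, 0.085 for *Atp6v1b2*, 0.0035 for *Atp6ap1* and 0.0021 for *Atp6ap2*, and with library totals −0.00036 for *Psap*.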
